A study of Mus musculus with 6 samples.

Results

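The regions described here are the ATAC-seq regions assigned to formin genes, chosen as every region whose gene name in the authors' table was Diaph1, Diaph2, Diaph3, Daam1, Daam2, Fmnl2, Fmnl3, Fhod1 or Fhod3, at any distance from the transcription start site (TSS). They were 11 of 63430 regions and belonged to 7 of the 9 genes, since 0 regions carried the names Daam2 or Fhod3. ATAC-seq reads open chromatin through the Tn5 transposase, which inserts sequencing adapters where DNA is accessible. All cells were NIH/3T3, a mouse embryonic fibroblast line, into which the gene of Cas13d, an RNA-cutting CRISPR nuclease, had been knocked in. In 3 libraries the cells had been transfected with a guide RNA against the mRNA of Actg1, the cytoplasmic gamma-actin gene, and in 3 with a guide against GFP. Both groups thus carry the nuclease and a transfected guide, and whether the knock-in line is 1 clone is not stated in the sources used here. The comparison asks how accessibility of these genes differs when the mRNA of an actin is targeted for decay.

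Formins are large proteins that start and elongate unbranched actin filaments. Their FH2 domain sits on the growing end of a filament, and their proline-rich FH1 domain takes up actin bound to profilin. Most are held inactive by contact between their own ends until upstream signals open them, and because they consume actin monomers they also feed the MRTF and SRF pathway, in which free monomeric actin keeps the cofactor MRTF away from SRF. The Diaph genes encode the diaphanous formins, which build stress fibre and cortical actin. The Daam genes encode formins tied to Dishevelled and planar polarity signalling, the Fmnl genes formins of the cell edge and its protrusions, and the Fhod genes formins of stress fibres and, for Fhod3, of the sarcomere in heart muscle.

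Between 5675847 and 9526231 reads per library were estimated to lie in regions. The first and second GFP guide libraries differed by no more than the estimated sampling noise, so they entered as 1 sample. That agreement does not show that they came from 1 culture. The SDs of the GFP guide group are over 2 samples and leave out the spread between those libraries. Means of this group, and the percent and fold changes from them, thus weigh GFP guide replicate 3 as much as replicates 1 and 2 together. The study's design text calls the 3 libraries of each guide biological replicates, these 2 included, but does not say that they came from separate cultures, and p-values measure only the spread between these samples, which may be technical. With 0 regions of the table within 10 kb of Actg1, the data hold no check of the targeted gene. Promoter regions were present for 9 of 15 fibroblast markers, among them Vim, Fn1, Col1a1 and Col1a2, and were absent from the table for Pdgfra, Thy1, Fap, Postn, Dcn and Lum. Their 12 promoter regions summed to 3352 to 3472 with the Actg1 guide and 3746 to 3855 with the GFP guide. Of these 12, 1 was called higher and 5 lower, where 14.0% of all promoter regions were called higher and 18.7% lower. The 1 called higher was a Col1a1 region, with 453, 430 and 367 with the Actg1 guide and 266, 246 and 254 with the GFP guide. Its log2 fold change was 0.70, while the other Col1a1 promoter region, at 0.09, was not called. Of epithelial, endothelial and leukocyte markers 1 of 6, 0 of 4 and 1 of 5 had a promoter region. The leukocyte one, Cd68, a lysosomal protein of macrophages, had 112, 100 and 91 with the Actg1 guide and 56, 56 and 42 with the GFP guide, while Ptprc, Itgam and Cd3e had none. The part of these differences in the formin results was not tested.

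The RefSeq promoter sequences (GRCm38.p6, 250 bases before to 50 after the annotated start) of the genes whose promoter region was called are shown first, because these stretches lie inside the regions whose signal differed. They are given 5′ to 3′ on the strand of the gene, with matches to GGGCGG, the core of the Sp1 family site, and to CCAAT, the NF-Y site, in capitals on either strand. No sequence is shown for Diaph1.
Diaph2 (chrX:129749492-129749791, + strand): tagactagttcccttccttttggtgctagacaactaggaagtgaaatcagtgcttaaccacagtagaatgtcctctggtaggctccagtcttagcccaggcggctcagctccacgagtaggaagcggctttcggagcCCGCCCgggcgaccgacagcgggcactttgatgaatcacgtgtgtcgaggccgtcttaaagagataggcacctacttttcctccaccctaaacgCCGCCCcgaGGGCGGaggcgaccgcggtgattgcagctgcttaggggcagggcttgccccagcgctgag
Diaph3 (chr14:87141175-87141474, - strand): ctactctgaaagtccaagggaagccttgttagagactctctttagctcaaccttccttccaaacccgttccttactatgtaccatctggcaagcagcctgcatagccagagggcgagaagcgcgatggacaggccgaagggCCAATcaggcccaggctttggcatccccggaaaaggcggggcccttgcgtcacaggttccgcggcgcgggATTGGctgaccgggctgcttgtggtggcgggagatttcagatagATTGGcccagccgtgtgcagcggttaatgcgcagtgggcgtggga
Daam1 (chr12:71830818-71831117, + strand): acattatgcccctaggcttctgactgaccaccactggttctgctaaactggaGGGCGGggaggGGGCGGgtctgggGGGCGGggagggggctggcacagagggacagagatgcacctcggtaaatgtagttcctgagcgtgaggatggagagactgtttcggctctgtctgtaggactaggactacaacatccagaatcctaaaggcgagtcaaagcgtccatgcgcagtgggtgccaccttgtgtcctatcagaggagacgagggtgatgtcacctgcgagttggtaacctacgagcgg
Fmnl3 (chr15:99370433-99370732, - strand): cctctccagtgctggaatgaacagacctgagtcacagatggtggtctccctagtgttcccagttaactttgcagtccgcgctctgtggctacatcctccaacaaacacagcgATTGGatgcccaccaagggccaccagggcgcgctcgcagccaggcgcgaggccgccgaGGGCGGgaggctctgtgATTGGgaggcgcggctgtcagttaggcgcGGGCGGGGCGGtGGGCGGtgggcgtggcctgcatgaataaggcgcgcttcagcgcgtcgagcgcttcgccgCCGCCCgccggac

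Fmnl3, the one of these 4 promoters that gained signal, had 66.7% G and C and 30 CpG dinucleotides, fewer than the Fmnl2 promoter, which was not called and had 78.7% and 49. It held both motifs, with 5 GGGCGG matches, of which those at positions 217 and 222 from the 5′ end overlap, and 2 CCAAT matches. Diaph2 (58.7% G and C, 20 CpG) and Daam1 (58% and 13) had 3 GGGCGG matches each and 0 CCAAT matches, and Diaph3 (59.3% and 18) had 0 and 3. With Fmnl2 and Fhod1 included, 6 formin promoters were searched, and 5 held GGGCGG and 2 held CCAAT, against 35.7% and 37.4% of 32851 mouse promoters of the same length. Those 32851 had a median of 52.7% G and C and 7 CpG, below each of the 6 formin windows. Motif shares were not compared at like G and C content. TGANTCA, the AP-1 site, was found in Diaph2 and Fmnl3 (7.81% of all promoters), and GGAATG, the TEAD site, in Fmnl3 (14.7%). The CArG box bound by SRF was found in 0 of 6 (1.63% of all promoters), as were TATAAA (13.6%), CCGGAAG of Ets factors (8.86%) and the palindromic NRF1 site (0.971%). Both strands were searched, and these letters are a description of the windows.

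All 11 regions passed the filter on low values. With the Actg1 guide 2 of them were called higher and 4 lower, where over all 61327 regions tested 20.6% were called higher and 20.7% lower, 41.3% in all (limma on log2 signal, Benjamini-Hochberg adjusted p under 0.05). The 7 promoter regions, those centred within 1 kb of the TSS, were 1 higher, 4 lower and 2 not called. Among all promoter regions 14.0% were called higher and 18.7% lower, and among promoter regions with at least the signal of Fmnl2, the lowest of the 7, the shares were 13.7% and 25.0%. The 4 regions farther from the TSS were 1 higher and 3 not called, where among all assigned regions over 1 kb away 22.6% were called higher and 18.1% lower. The median log2 fold change of the 7 was -0.16, beside -0.02 over 9898 promoters of protein-coding genes, and their median absolute value was 0.18 beside 0.14. These medians are not at like signal, since the median signal was 533 for the 7 and 272 for promoters of protein-coding genes. The changes were small: log2 fold changes ran from -0.38 to 0.35, and 0 of the 11 regions changed by as much as 2-fold.

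**Figure D1:**
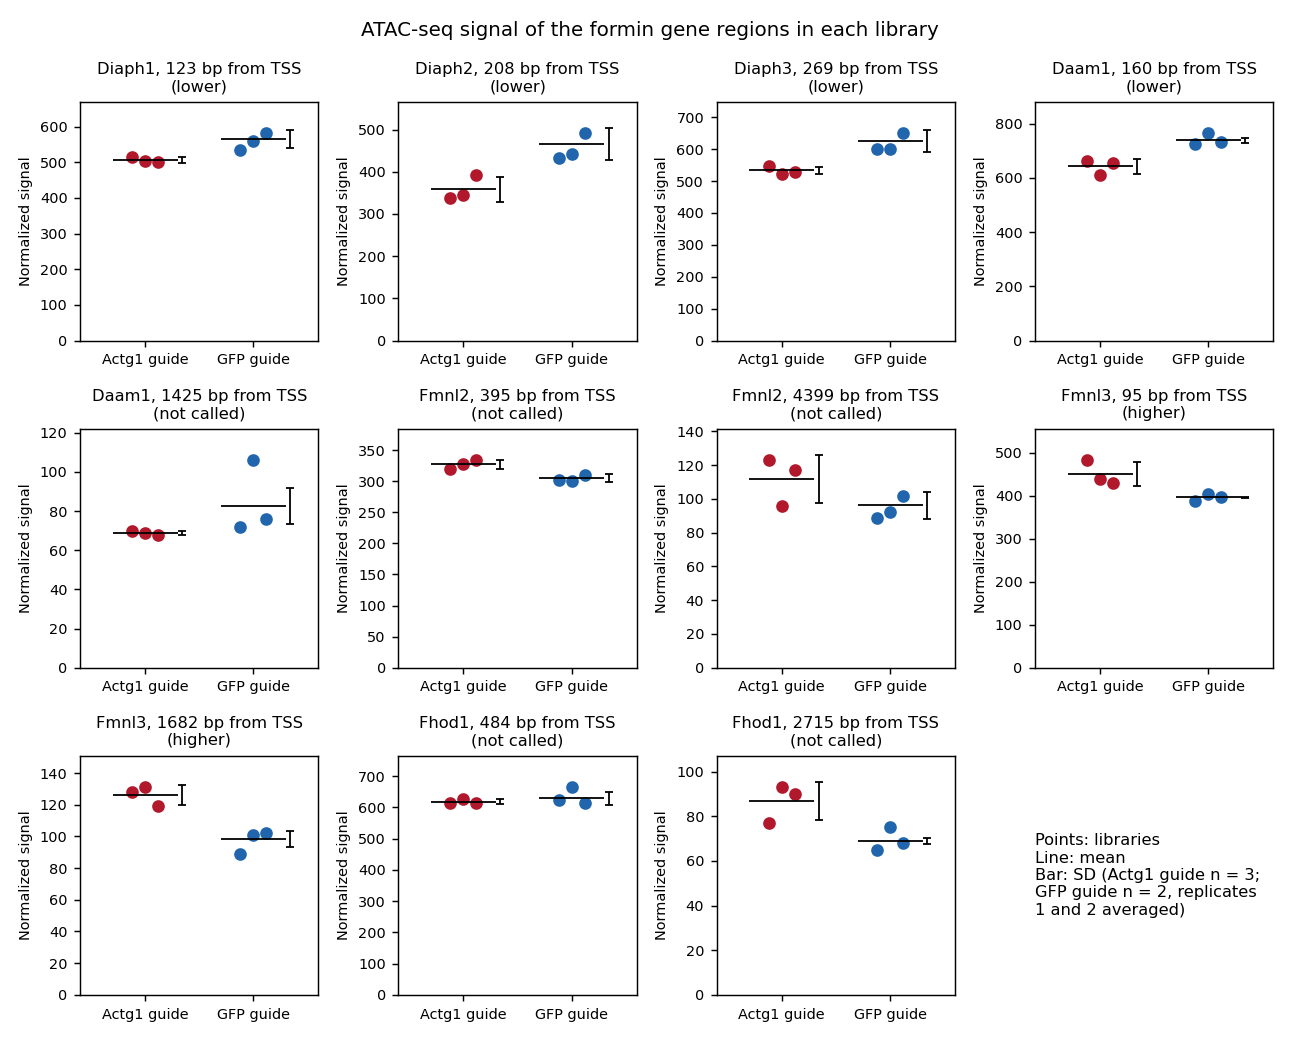
Normalized ATAC-seq signal (y axis, from 0) of the 11 formin gene regions, with Actg1 guide libraries in red on the left and GFP guide libraries in blue on the right of each panel; points are libraries, lines means and bars SDs (n = 3 and n = 2). The Actg1 guide points lie below all GFP guide points at the promoters of Diaph1, Diaph2, Diaph3 and Daam1 and above them at both Fmnl3 regions.

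The promoters of all 3 diaphanous formins fell. Diaph2, whose human counterpart lies in an X-linked region tied to ovarian failure, changed most. Its promoter region (chrX:129749256-129750643) had a signal of 337, 346 and 392 with the Actg1 guide and 433, 443 and 492 with the GFP guide. The groups did not overlap, and the third replicate was the highest of each. The signal fell by 22.9%, with a log2 fold change of -0.38 (SE 0.0733, limma's adjusted p = 5.6e-05).

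Diaph3, the diaphanous formin known for roles in cytokinesis and in filopodia, had 547, 523 and 530 at its promoter region (chr14:87140416-87141516) with the Actg1 guide and 602, 602 and 651 with the GFP guide. Every Actg1 guide library lay at least as far below the lowest GFP guide library as the Actg1 guide libraries lay from one another. The log2 fold change was -0.23 (SE 0.0591, limma's adjusted p = 0.00152).

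Diaph1, also known as mDia1, had 516, 503 and 501 at its promoter region (chr18:37934948-37935757) with the Actg1 guide and 535, 559 and 582 with the GFP guide. The groups did not overlap, but the nearest libraries, at 516 and 535, were close. The signal fell by 10.2% (log2 fold change -0.16, SE 0.0604, limma's adjusted p = 0.0357). This was the least stable call of the 3. It ended on leaving out any library but GFP guide replicate 1 (limma's adjusted p = 0.0503 to 0.302, log2 fold change -0.17 to -0.11), and after cyclic loess or quantile scaling (limma's adjusted p = 0.0899 and 0.0811).

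Daam1, a formin that binds Dishevelled, also fell at its promoter region (chr12:71830634-71831841), which had 663, 610 and 654 with the Actg1 guide and 726, 766 and 733 with the GFP guide. The groups did not overlap, and the log2 fold change was -0.20 (SE 0.0549, limma's adjusted p = 0.00249). The second Daam1 region, 1425 bp from the TSS (chr12:71832415-71832590), had 70, 69 and 68 with the Actg1 guide and 72, 106 and 76 with the GFP guide. The Actg1 guide libraries were within 2 units of each other, while GFP guide replicate 2 stood above the other two. The log2 fold change of -0.25 (95% interval -0.55 to 0.05) did not pass (limma's adjusted p = 0.178), and without GFP guide replicate 2 it was -0.10.

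Fmnl3, a formin of the FMNL group active in filopodia and vessel formation, went the other way. Its promoter region (chr15:99369943-99370830) had 483, 438 and 430 with the Actg1 guide and 388, 404 and 397 with the GFP guide, so that all 3 Actg1 guide libraries were above. The log2 fold change was 0.18 (SE 0.0679, limma's adjusted p = 0.0286), and it did not pass without Actg1 guide replicate 1 (0.13, limma's adjusted p = 0.15), GFP guide replicate 1 (0.17, limma's adjusted p = 0.055) or GFP guide replicate 3 (0.18, limma's adjusted p = 0.174).

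The second Fmnl3 region, 1682 bp from the TSS inside the gene (chr15:99368667-99368933), had 128, 131 and 119 with the Actg1 guide and 89, 101 and 102 with the GFP guide. It rose by 27.9%, the largest rise of the 11 (log2 fold change 0.35, SE 0.121, limma's adjusted p = 0.017). The call ended without Actg1 guide replicate 1 or 2 or GFP guide replicate 3 (log2 fold change 0.34, 0.32 and 0.40, limma's adjusted p = 0.0527, 0.0509 and 0.0734). The RefSeq gene Gm22951, a small nuclear RNA gene, lies within 1 kb of this region.

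Fmnl2, the close relative of Fmnl3 that acts at lamellipodia, was not called at either region. The promoter region (chr2:52857497-52859013) had 320, 327 and 334 with the Actg1 guide and 302, 300 and 310 with the GFP guide. The libraries of the groups did not overlap, but the log2 fold change of 0.10 (95% interval -0.05 to 0.25) did not pass (limma's adjusted p = 0.312). The region 4399 bp from the TSS had 123, 96 and 117 with the Actg1 guide and 89, 92 and 102 with the GFP guide. These overlapped, with a log2 fold change of 0.21 (95% interval -0.05 to 0.47, limma's adjusted p = 0.199). It was 0.14 without Actg1 guide replicate 1 and 0.32 without Actg1 guide replicate 2, and was called in neither fit.

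Fhod1, a formin of stress fibres, had a promoter region (chr8:105346628-105348309) that also spans the annotated start of Slc9a5, a sodium-proton exchanger gene, and part of the lncRNA gene Gm46049, so its signal cannot be given to Fhod1 alone. It had 613, 627 and 615 with the Actg1 guide and 624, 664 and 613 with the GFP guide. The groups overlapped, and the log2 fold change was -0.02 (95% interval -0.14 to 0.09, limma's adjusted p = 0.774); cyclic loess and quantile scaling gave it the other sign, at 0.01 each. The region 2715 bp from the TSS (chr8:105345159-105345317), with Gm46049 within 1 kb of it, had 77, 93 and 90 with the Actg1 guide and 65, 75 and 68 with the GFP guide. All Actg1 guide libraries were above, but the log2 fold change of 0.32 (95% interval 0.03 to 0.61) did not pass after adjustment (limma's adjusted p = 0.0724). It passed without Actg1 guide replicate 1 (limma's adjusted p = 0.0442), without GFP guide replicate 2 (limma's adjusted p = 0.0435) and with the 6 libraries fitted separately with a replicate block (limma's adjusted p = 0.0448).

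**Figure D2:**
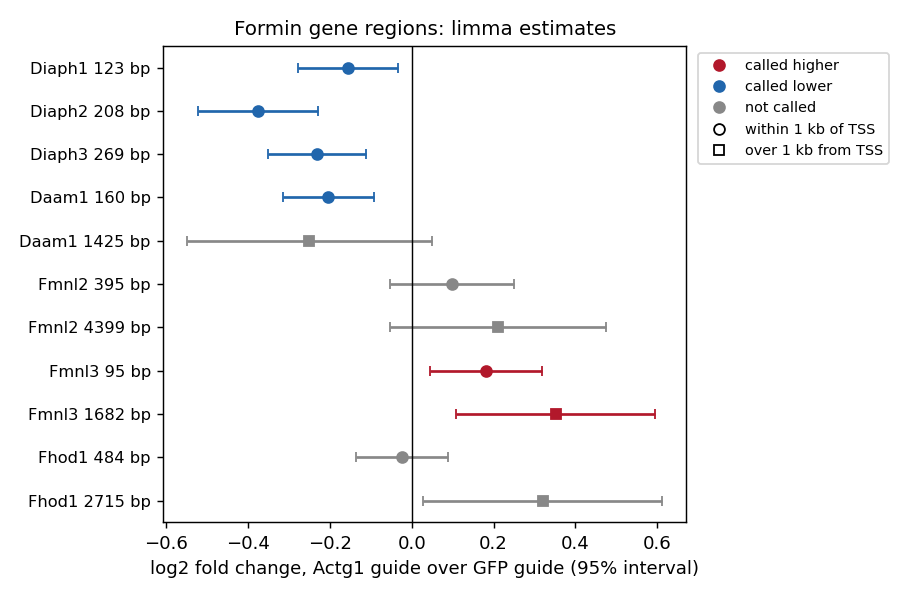
Log2 fold change of the normalized signal, Actg1 guide over GFP guide (x axis, with 95% limma intervals), for the 11 formin gene regions named by gene and distance to the TSS; circles are within 1 kb of the TSS and squares farther away. The Diaph and Daam1 promoters lie between -0.38 and -0.16, and the Fmnl regions between 0.10 and 0.35.

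Counting libraries rather than tests, 4 of the 11 regions had all Actg1 guide libraries above all GFP guide libraries and 5 had them all below, where 25.2% and 25.5% of all regions did. As levels, the promoters were compared in signal per kilobase of region. With the Actg1 guide the means were 626 for Diaph1, 532 for Daam1, 507 for Fmnl3, 484 for Diaph3, 368 for Fhod1, 258 for Diaph2 and 216 for Fmnl2. With the GFP guide they were 697 for Diaph1, 612 for Daam1, 569 for Diaph3, 447 for Fmnl3, 374 for Fhod1, 335 for Diaph2 and 201 for Fmnl2. With the GFP guide no neighbours in this order overlapped between libraries. With the Actg1 guide Fmnl3, at 484 to 544 per kb, overlapped both Diaph3, at 475 to 497, and Daam1, at 505 to 549, so that it differed from neither beyond the spread, while Diaph3 and Daam1 did not overlap each other. In total signal the promoters ranked from the percentile 57.7 (Fmnl2) to 92.3 (Daam1) among promoter regions of protein-coding genes.

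By Euclidean distance of the centred log2 signals over the 6 libraries, the promoter regions most like that of Diaph2, the formin region with the largest called change, belonged to Man1a1, Sh3rf1 and S100a13 among 9916 searched. Man1a1, a Golgi mannosidase gene, was nearest at a distance of 0.0551, with 106, 108 and 122 with the Actg1 guide and 133, 133 and 151 with the GFP guide. Sh3rf1, a scaffold and ubiquitin ligase gene, was at 0.0672, and S100a13, a calcium-binding protein gene, at 0.0746. All of them share the 6 libraries with Diaph2.

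Away from their starts, the formin genes held many more regions, which the table assigned to no formin. Between the RefSeq bounds of the 9 genes lay 105 regions, 94 of them not named for the gene, and exon or intron is not given by the annotation used here. Of the 91 of these that were tested, 13 were called higher and 33 lower, where among regions assigned to no gene 22.1% were called higher and 21.9% lower. The 91 include regions named for Gm9955 inside Fhod3, so not all of them are assigned to no gene. The Gm9955 region 14 bp from the TSS of that gene is among the 33. Changes of at least 2-fold were called upward in 6 and downward in 15, against 7.53% and 7.58% of regions assigned to no gene. Their median log2 fold change was -0.23, beside -0.01 over all regions. Without GFP guide replicate 3 the number called among all 105 was 25, against 52 with it.

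**Figure D3:**
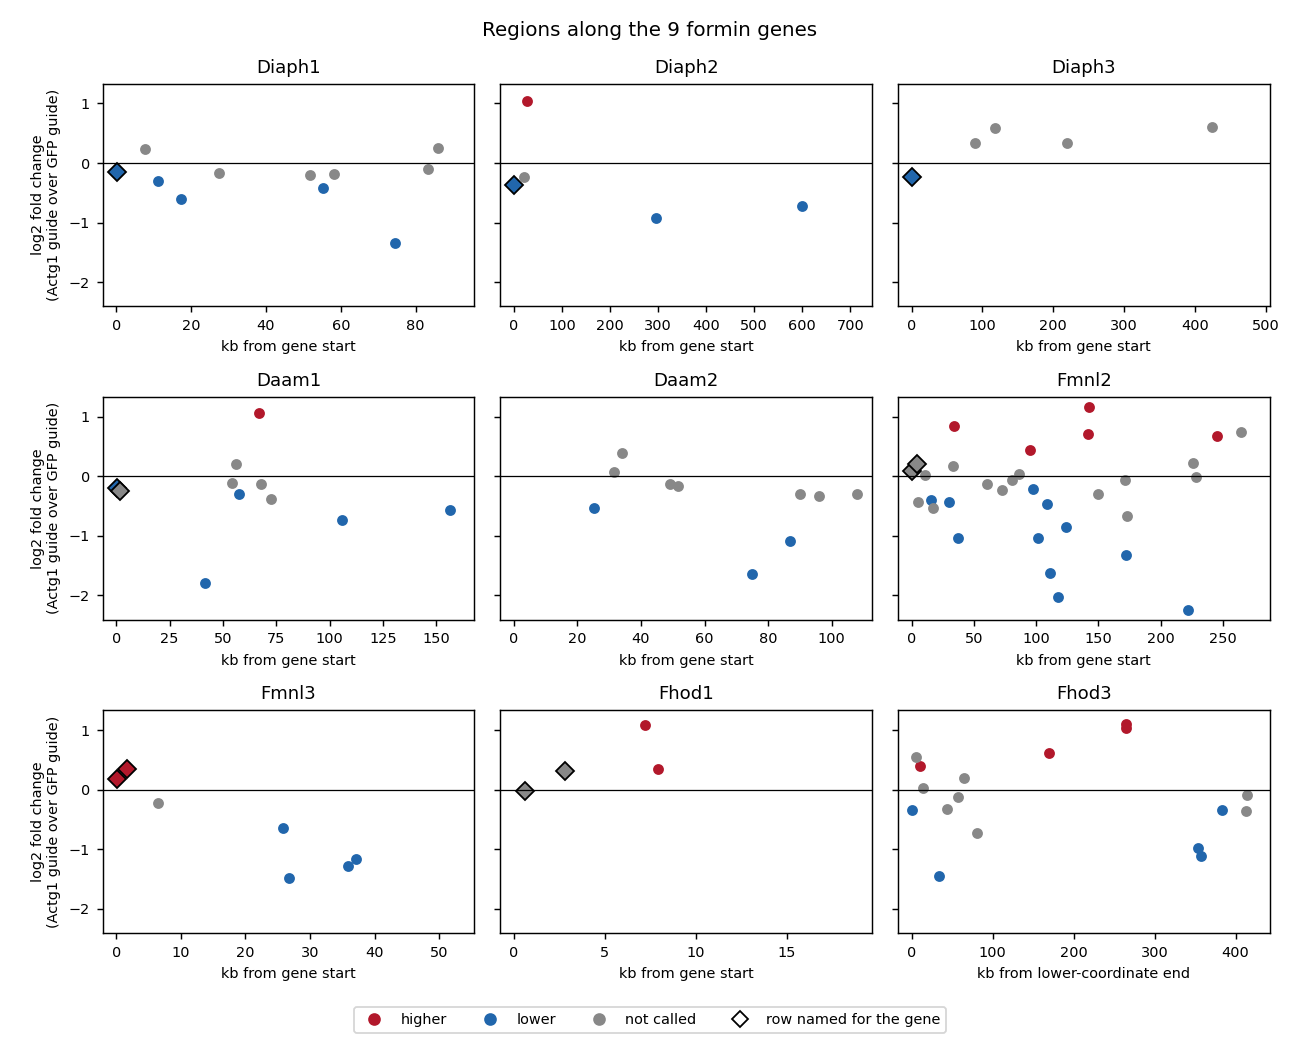
Log2 fold change of the signal, Actg1 guide over GFP guide (y axis), for tested regions along each of the 9 formin genes (x axis, kb from the gene start, or from the lower-coordinate end for Fhod3); diamonds are the regions named for the gene, and colours show limma calls. In Fmnl3 the 2 regions at the start lie above 0 and the 5 tested regions farther in lie below it.

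Fmnl3 showed the sharpest contrast within a gene. While both regions at its start were called higher, 4 of the 5 tested regions farther in were called lower. The median log2 fold change over the 5 was -1.16. Among regions assigned to no gene 21.9% were called lower. Of all promoter regions 14.0% were called higher, and of assigned regions over 1 kb from the TSS 22.6%. The region 37.1 kb into the gene (chr15:99332904-99333881) had 86, 89 and 95 with the Actg1 guide and 195, 213 and 201 with the GFP guide (log2 fold change -1.16, SE 0.116, limma's adjusted p = 7.91e-11). The region at 26.7 kb (chr15:99343545-99344039) had 29, 35 and 32 with the Actg1 guide and 95, 76 and 98 with the GFP guide (log2 fold change -1.49, SE 0.182, limma's adjusted p = 9.33e-09). In both, the groups lay far apart compared with the spread within them. The regions at 25.7 and 35.8 kb fell by 0.64 and 1.29 on the log2 scale (limma's adjusted p = 4.36e-05 and 0.00201), and the one at 6.4 kb had -0.23 (limma's adjusted p = 0.165). The 6 regions summed to 301, 346 and 348 with the Actg1 guide and to 591, 591 and 590 with the GFP guide. The difference between start and interior was not tested itself, and these regions were singled out after their values had been seen.

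Fmnl2, which spans 276.5 kb, held the most regions, with 5 higher and 11 lower among 30 tested regions not named for it. Among regions assigned to no gene 22.1% were called higher and 21.9% lower. The largest fall among the named regions, at 222.1 kb (chr2:53079696-53079939), had 2, 11 and 11 with the Actg1 guide and 35, 45 and 30 with the GFP guide (log2 fold change -2.24, SE 0.417, limma's adjusted p = 2.84e-05). It was -1.57 without Actg1 guide replicate 1, the library at 2, and -1.36 with a pseudocount of 10, and passed in both (limma's adjusted p = 0.00136 and 3.71e-07). At 117.3 kb (chr2:52974832-52975112) there were 6, 5 and 7 with the Actg1 guide and 27, 23 and 30 with the GFP guide (log2 fold change -2.03, limma's adjusted p = 3.06e-05, and -1.23 with a pseudocount of 10). Its signal reached 10 only in the GFP guide libraries, so it entered the test through the group in which it was high. It was not tested with a minimum of 30. The largest rise, at 142.8 kb (chr2:53000475-53000656), had 34, 42 and 50 with the Actg1 guide and 21, 17 and 17 with the GFP guide (log2 fold change 1.16, limma's adjusted p = 8.93e-05). Rises and falls thus both lay inside this gene, whose promoter was not called. At the shares given above, calls in both directions are usual among 30 regions.

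The genes of the lowered promoters differed inside, in small counts beside 22.1% higher and 21.9% lower among regions assigned to no gene. Diaph1 had 4 regions lower and 0 higher of 10, in the direction of its promoter. Among the lower ones, the region at 74.6 kb had 3, 9 and 7 with the Actg1 guide and 18, 20 and 14 with the GFP guide. Its signal reached 10 only in the GFP guide libraries, so it entered the test through the group in which it was high. Diaph3 had 0 called by limma of 4, 1 with an unadjusted p under 0.05, and log2 fold changes of 0.33 to 0.60, all above 0, at low signals that summed to 110, 130 and 135 with the Actg1 guide and 105, 66 and 100 with the GFP guide. Diaph2 had 1 higher and 2 lower of 4, spread over 716.2 kb. Daam1 had 1 higher and 4 lower of 9, and its extreme regions were weak. The region at 66.8 kb had 18, 11 and 14 with the Actg1 guide and 13, 6 and 4 with the GFP guide (log2 fold change 1.06, limma's adjusted p = 0.0368), groups that overlap; without GFP guide replicate 3 it was 0.52 (limma's adjusted p = 0.443). It also failed on leaving out the second GFP guide library or replicate 1 or 3 of the Actg1 guide libraries (0.85, 0.89 and 1.06, limma's adjusted p = 0.109, 0.165 and 0.0848). The region at 41.6 kb had 1, 11 and 1 with the Actg1 guide and 10, 9 and 14 with the GFP guide (log2 fold change -1.79, limma's adjusted p = 0.0223), and did not pass without the third GFP guide library or replicate 1 or 3 of the Actg1 guide libraries (-1.53, -1.36 and -1.36, limma's adjusted p = 0.356, 0.153 and 0.134). It was -2.65 without Actg1 guide replicate 2, the library at 11, and with a pseudocount of 10 the regions at 66.8 and 41.6 kb had 0.55 and -0.66.

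Fhod1 had both of its other inner regions higher, next to its region at 2715 bp, where 22.1% of regions assigned to no gene were called higher. At 7.2 kb (chr8:105340755-105341000) there were 41, 47 and 52 with the Actg1 guide and 24, 22 and 20 with the GFP guide (log2 fold change 1.08, SE 0.216, limma's adjusted p = 8.08e-05). At 7.9 kb there were 112, 95 and 101 with the Actg1 guide and 77, 72 and 87 with the GFP guide (log2 fold change 0.34, limma's adjusted p = 0.0378).

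Daam2 and Fhod3, without a region in their own name, could be followed only inside their bounds. Their counts stand beside 22.1% higher and 21.9% lower among regions assigned to no gene. Daam2, the second Dishevelled-associated formin, had 0 higher and 3 lower of 10 regions. The region at 75.1 kb (chr17:49489213-49489568) had 11, 12 and 12 with the Actg1 guide and 46, 33 and 37 with the GFP guide (log2 fold change -1.63, SE 0.288, limma's adjusted p = 1.22e-05), and that at 86.8 kb had 103, 89 and 122 with the Actg1 guide and 208, 223 and 227 with the GFP guide (log2 fold change -1.08, limma's adjusted p = 6.16e-10). Fhod3, the formin needed for sarcomeres in mouse heart, had 4 higher and 5 lower of 17. The largest fall there (chr18:24742167-24742683) had 21, 26 and 30 with the Actg1 guide and 70, 88 and 64 with the GFP guide (log2 fold change -1.45, SE 0.209, limma's adjusted p = 3.25e-07), and the next (chr18:25065366-25065807) was at -1.11 (limma's adjusted p = 3.92e-05). The largest rise there (chr18:24972598-24973059) had 49, 47 and 50 with the Actg1 guide and 24, 23 and 21 with the GFP guide (log2 fold change 1.10, SE 0.209, limma's adjusted p = 4.03e-05). The table named a region at the lower-coordinate end of Fhod3 (chr18:24708908-24709816) for Gm9955, 14 bp from the TSS of that gene, so that it falls outside the naming rule. It had 97, 105 and 91 with the Actg1 guide and 131, 109 and 127 with the GFP guide (log2 fold change -0.34, SE 0.125, limma's adjusted p = 0.0271). A second region named for Gm9955 inside Fhod3 (chr18:24714031-24714192) had 30, 24 and 26 with the Actg1 guide and 25, 20 and 14 with the GFP guide, at 0.55 and not called (limma's adjusted p = 0.0988).

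The genes around formins were taken from a list of other formins, profilins, formin activators and partners, MRTF and SRF, filament partners and signalling genes, of which 32 of 46 had 36 promoter regions. With the Actg1 guide 4 were higher and 2 lower of the 36, where 32.7% of all promoter regions were called, and the list's median log2 fold change was 0.05. Without GFP guide replicate 3 the 6 calls were 3. The lower ones were Rhob and Arhgef11. Rhob, an immediate early gene, had 872, 818 and 892 with the Actg1 guide and 922, 1009 and 943 with the GFP guide (log2 fold change -0.15, SE 0.049, limma's adjusted p = 0.0123). Rhob did not pass without GFP guide replicate 2 or 3 or Actg1 guide replicate 2 (log2 fold change -0.12, -0.17 and -0.11, limma's adjusted p = 0.0619, 0.0931 and 0.0655), nor after cyclic loess scaling (limma's adjusted p = 0.0561).

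Among activators and partners 1 of 8 regions was called, where 32.7% of all promoter regions were. Dvl2, a Dishevelled gene, had 329, 365 and 335 with the Actg1 guide and 251, 292 and 262 with the GFP guide (log2 fold change 0.36, SE 0.0775, limma's adjusted p = 0.00021). Dvl1 and Dvl3, at log2 fold changes of 0.18 and -0.09 for the regions nearest their TSS, did not pass (limma's adjusted p = 0.077 and 0.297), and neither did Rock1 and Rock2 (0.03 and -0.09, limma's adjusted p = 0.708 and 0.143). Arhgef11, a guanine nucleotide exchange factor gene, had 261, 250 and 270 with the Actg1 guide and 296, 280 and 309 with the GFP guide, the log2 fold change being -0.20 (SE 0.0813, limma's adjusted p = 0.0485). Arhgef11 did not pass without GFP guide replicate 1 or 3 or Actg1 guide replicate 1 or 2 (log2 fold change -0.18, -0.15, -0.20 and -0.17, limma's adjusted p = 0.0988, 0.33, 0.087 and 0.114), nor after cyclic loess or quantile scaling (limma's adjusted p = 0.0743 and 0.091).

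Of 3 promoter regions of other formins 1 was called higher and 0 lower, where 14.0% and 18.7% of all promoter regions were. Both regions of Fhdc1, at log2 fold changes of 0.20 and -0.01, did not pass (limma's adjusted p = 0.101 and 0.983). Inf2, which works on filaments around mitochondria and the endoplasmic reticulum, had 660, 672 and 724 at its promoter with the Actg1 guide and 585, 578 and 577 with the GFP guide. All Actg1 guide libraries were above (log2 fold change 0.24, SE 0.0565, limma's adjusted p = 0.00059). Pfn1, the profilin that delivers actin to FH1 domains, had the largest change of the lists, with 775, 817 and 722 with the Actg1 guide and 531, 576 and 538 with the GFP guide (log2 fold change 0.50, SE 0.0565, limma's adjusted p = 1.98e-09), and its second promoter region had 0.05 (limma's adjusted p = 0.827). Of MRTF and SRF genes, Srf passed at 0.18 (limma's adjusted p = 0.00551, and 0.139 without GFP guide replicate 3), while Mrtfa and Mrtfb had 0.06 and 0.09 (limma's adjusted p = 0.471 and 0.35). Of 9 regions of filament partners, 0 were called by limma, where 32.7% of all promoter regions were. Of these 9, 0 had an unadjusted p under 0.05, with log2 fold changes of -0.13 to 0.15.

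**Figure D4:**
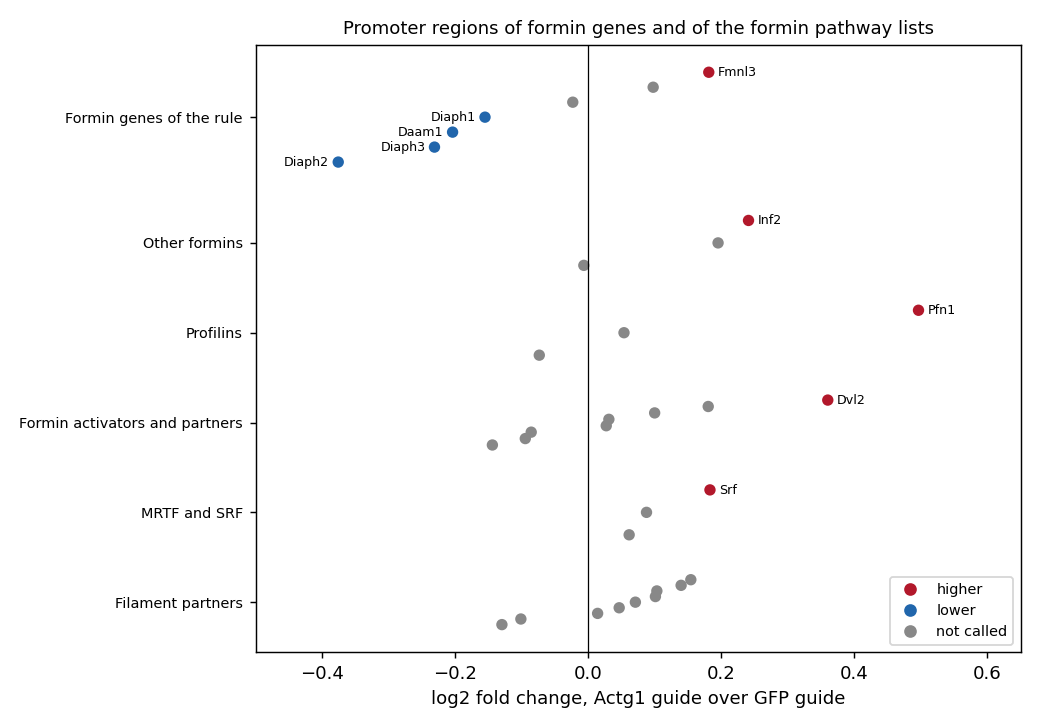
Log2 fold change of promoter regions, Actg1 guide over GFP guide (x axis), for the formin genes and for lists of genes around them (rows, without the list that holds Rhob and the one that holds Arhgef11); each point is a promoter region, coloured by its limma call, and called ones carry their gene name. Pfn1 lies farthest to the right at 0.50 and Diaph2 farthest to the left at -0.38.

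How far the formin calls rest on single libraries was followed by leaving out each in turn. Diaph2, Diaph3 and Daam1 passed in 5 of 6 such fits, the Fmnl3 promoter and the second Fmnl3 region in 3 of 6, and Diaph1 in 1 of 6. Leaving out GFP guide replicate 3 leaves a single GFP guide sample, assumed to vary like the other group, and then 0 of the 11 regions passed in limma, with 4 at an unadjusted p under 0.05. The log2 fold changes were -0.29 for Diaph2 (limma's adjusted p = 0.0669), -0.17 for Diaph3 (limma's adjusted p = 0.106), -0.22 for Daam1 (limma's adjusted p = 0.0546), -0.11 for Diaph1 (limma's adjusted p = 0.302), and 0.18 and 0.40 for the 2 Fmnl3 regions, with unchanged signs. In that fit 12793 regions passed over the genome, against 25323.

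**Figure D5:**
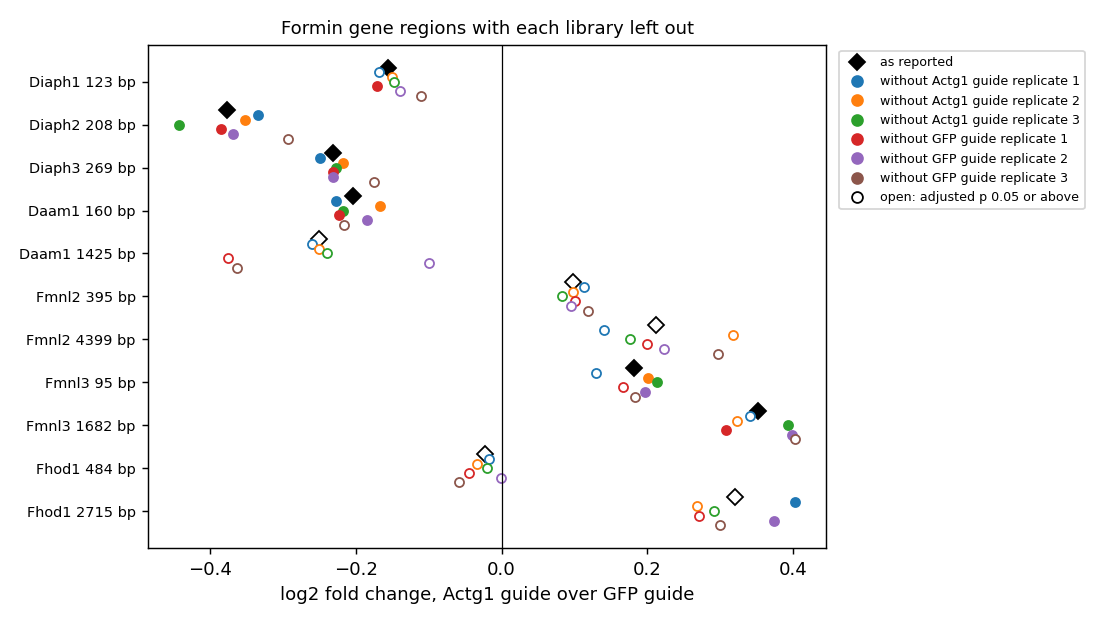
Log2 fold change, Actg1 guide over GFP guide (x axis), of the 11 formin gene regions with all libraries (black diamonds) and with each library left out (coloured circles); open symbols have a limma's adjusted p of 0.05 or above. Without GFP guide replicate 3 every symbol is open, and the called regions stay on their side of 0.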

How the data were processed

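The data were ATAC-seq libraries of 6 samples, 3 per guide. The authors deposited 1 table with a signal per region and library, a read count that had been scaled and rounded to whole numbers; this reading rests on the values. Per the submitters' processing notes, the build was mm10 and the tools DESeq, DESeq2 1.36.0, featureCounts, STAR 2.7.10a, Trimmomatic 0.39 and Picard 3.0.0, without roles; the sources used here give neither the peak caller nor the Tn5 offset nor the scaling. A poor scaling would shift regions of like signal together.

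The signal worth of 1 read, 0.807 to 1.35, was estimated from the uneven use of small whole numbers. GFP guide replicates 1 and 2 gave 0.99 chi-square units per region (p = 0.943 over 50824 regions), the other within-group pairs 1.04 to 1.13, and they were averaged. The model, limma 3.58.1 (R 4.3.3) with its intensity trend and no covariate, took log2(signal + 1) of the 61327 regions whose signal reached 10 in 3 or more libraries. Fold changes are differences of mean log2(signal + 1). Adding 1 shrinks changes of low regions, while a library at 1 or 2, as in the largest falls inside Daam1 and Fmnl2, enlarges them. Deviations of same-numbered libraries from their group means correlated positively but under 0.1, too weakly to pair the libraries, so the fit has no block. Gene bounds, neighbours and promoters came from RefSeq (GRCm38.p6, the assembly of mm10), matching all 9 genes for bounds.

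Named were all formin regions and, by log2 fold change, the 4 largest rises and 4 largest falls past the threshold among pathway promoters and among inner regions; further genes and inner regions were chosen after their values were seen. Likeness was computed for the called formin region with the largest absolute change, and sequences are those of called promoters. The members and lists were chosen with earlier results of these data known. Alternatives were other scalings, pseudocounts, filters, separate libraries, a replicate block, a 5 kb promoter window and each library left out. The counts of some lists are not reported here.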

Additional observations from a re-analysis of the deposited data

How the results depend on the processing

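Under the 8 alternatives that keep all libraries (cyclic loess and quantile scaling, a pseudocount of 0.5 or 10, no filter or a minimum of 30, the 6 libraries as separate samples, and these with a replicate block), the formin regions called higher numbered 2 or 3 and those called lower 3 or 4, and the Fhod1 promoter, not called, changed sign under cyclic loess (0.0123) and quantile scaling (0.0141). With the 6 libraries separate 28176 regions were called. With each library left out, formin regions called higher ran from 0 to 3 and lower from 0 to 4, all regions called from 12793 to 24706, promoter regions from 1233 to 3684, pathway promoter regions from 3 to 6, and regions inside the formin genes from 25 to 51; the lowest values came without GFP guide replicate 3. A promoter window of 5 kb gave 7514 called promoter regions against 3806, as it takes in more regions. With the replicate block 28725 regions and 3 and 4 formin regions were called; the deviations of same-numbered libraries correlated at 0.0138 to 0.0252, each library best with its own number, which is a hint from the data and not the design. Low-signal regions inside genes had wide errors, and depth there limits what differences can be seen.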

Other observations

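The other formins had 4 regions over 1 kb from a TSS, outside the naming rule and the promoter lists. The Fmn1 region 4424 bp from the TSS of this limb and kidney formin in mouse had 94, 69 and 78 with the Actg1 guide and 47, 36 and 50 with the GFP guide, a log2 fold change of 0.79 (SE 0.165, limma's adjusted p = 0.000137), with all Actg1 guide libraries above. The stronger Fmnl1 region, 3690 bp from the TSS of the FMNL formin of blood cells, had 323, 350 and 330 with the Actg1 guide and 376, 380 and 421 with the GFP guide, a log2 fold change of -0.25 (SE 0.0734, limma's adjusted p = 0.00457). The weak one at 2287 bp had -0.33 (limma's adjusted p = 0.448). The Inf2 region 1093 bp from the TSS had 94, 115 and 128 with the Actg1 guide and 138, 146 and 146 with the GFP guide, a log2 fold change of -0.37 (SE 0.123, limma's adjusted p = 0.0148), where the Inf2 promoter region rose. Of assigned regions over 1 kb from a TSS 40.7% were called. These regions were looked at after the values of the promoter lists had been seen.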
